A study of Caenorhabditis elegans with 2 samples.

Results

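The genes described here are the 70 protein-coding genes of Caenorhabditis elegans whose symbols start with sec-, vps- or vha-, of 19973 protein-coding genes in all. They comprise 19 sec- genes of protein secretion, 31 vps- genes of vacuolar and endosomal protein sorting, and 20 vha- genes of the vacuolar H+-ATPase (V-ATPase). Members were chosen by symbol, after the binding of these name stems in the same peaks was known, and each was called bound where the summit of a DPL-1 peak lay from 500 bp upstream to 200 bp downstream of one of its transcript starts. The peaks come from chromatin immunoprecipitation and sequencing of 2 biological replicates of L1 larvae, the first larval stage, sexes pooled and age unknown, in 1 group with nothing set against it. The strain, YL448, has the unc-119 allele ed3 and the insertion vrIs83, in which the ges-1 promoter drives DPL-1 with a C-terminal GFP-FLAG tag and the dpl-1 3'UTR, beside unc-119 (+). That promoter is an intestinal one, whereas chromatin was taken from whole larvae, and the antibody is labelled only dpl-1, so native and tagged DPL-1 cannot be told apart here. Read totals of the libraries were not given in the peak lists used here, and the depth behind each peak is unknown. Signal is the authors' value per peak, on a scale not stated in the files. It is used here to rank peaks, with rank 1 the strongest. The main list holds the 3726 peaks that passed the irreproducible discovery rate (IDR) cutoff of the authors, with signals between 39.5 and 5289 (median 94.0), and each replicate had its own list of 30000 peaks. The IDR peaks were the 3726 strongest of the pooled list. Signal was higher in replicate 1 than in replicate 2, by a median ratio of 5.32 over IDR peaks matched in both (10th to 90th percentile 3.30 to 10.7).

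DPL-1, the DP protein of worms, binds DNA together with E2F factors and is part of DREAM, a complex known for repressing cell cycle genes. The genes described here serve the membrane system of nearly every cell. Proteins enter the endoplasmic reticulum (ER) through the Sec61 channel, leave it in vesicles coated with COPII, and reach the plasma membrane with the help of the exocyst, a tethering complex. In endosomes, ESCRT complexes pull membrane inward and retromer returns receptors, while HOPS and CORVET tether membranes before fusion. The V-ATPase acidifies these organelles by pumping protons: its V1 sector hydrolyses ATP and its V0 sector carries protons across the membrane.

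The bases under the summits were searched for strings known to bind DREAM and other factors. Strings of the E2F type (TTTCCCGC, TTTGGCGC, TTTGCCGC or TTTCGCGC, on either strand) were found within 50 bp of 0 of the 37 member summits, which allows a share of up to 8.11%, against 170 of all 2262 promoter summits (7.52%). Strings of the CHR type (TTTGAA or TTCGAA), the second element through which DREAM binds DNA, were found at 9 member summits (24.3%), against 740 of all promoter summits (32.7%). In windows of equal length 500 bp to the lower coordinate, the E2F strings lay at 0 of 37 and at 1.99%, and the CHR strings at 15 of 37 (40.5%) and at 30.5%. The E-box TCACGTGA, bound by the lysosomal regulator HLH-30, was found at 0 member summits, against 0.486% of all promoter summits. The string TGATAA, bound by intestinal factors of the GATA family, was likewise found at 0, against 4.38%. For the E2F strings, the E-box and TGATAA alike, a count of 0 of 37 was taken to allow up to 3. That is a share of up to 8.11%, in each case above that of all promoter summits. In the windows 500 bp away TGATAA lay at 4 of 37 (10.8%), against 9.24%. In the whole promoter windows, E2F strings were present in 6 of the 70 members (8.57%), against 10.1% of all genes. CHR strings were present in 60 (85.7%), against 92.3%, the E-box in 0, against 1.22%, and TGATAA in 33 (47.1%), against 53.8%. The absence of letters from these windows says nothing of the factor itself.

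One string, TGCGTCTC, was chosen after the bases were seen and is given as a description only. It lay within 50 bp of 7 of the 37 member summits (18.9%), against 221 of all promoter summits (9.77%), and in windows of equal length 500 bp to the lower coordinate it lay at 1 of 37 (2.70%) and 17 of 2262 (0.752%). The 7 members are shown as 30 bases of build ce11, 5′ to 3′ on the strand that reads the string, with the string in capitals. They include 3 sec- genes, 3 vps- genes and 1 vha- gene.
sec-61.G (chrV:10897342-10897371, minus strand): tcttggacgtcTGCGTCTCtcgtttccact
sec-24.1 (chrIV:11566359-11566388, plus strand): acccagcgtgcTGCGTCTCttcaggcaaca
vps-37 (chrV:5592521-5592550, plus strand): agaaatatgccTGCGTCTCttcagcgaacc
vps-60 (chrV:8606412-8606441, plus strand): aaatgtgtgtcTGCGTCTCgtttatttctt
sec-3 (chrX:3099973-3100002, plus strand): cggagttattcTGCGTCTCtgcagttttct
vps-33.2 (chrII:6601142-6601171, plus strand): cttttgatgtcTGCGTCTCttcatcttata
vha-15 (chrX:2237600-2237629, minus strand): ccttttctatcTGCGTCTCtactagccgtc

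A second string chosen in the same way, GCGCTC, lay at 10 of the 37 member summits (27%), against 444 of all promoter summits (19.6%). In windows 500 bp away it lay at 0 of 37 and at 51 of 2262 (2.25%). Both strings were thus found at promoter summits in general and not at the members alone. The 4 examples below are from members of different complexes, again with the string in capitals, and none of these 4 summits had TGCGTCTC within 50 bp.
vha-12 (chrX:4190766-4190795, minus strand): tgctgtctgcgtGCGCTCtcttgccgtttc
sec-31 (chrIV:11371829-11371858, plus strand): cagggagtaagtGCGCTCctttgcactcga
vps-2 (chrII:12768402-12768431, plus strand): gggtatgcaagtGCGCTCcaccggacaact
vps-35 (chrII:5907654-5907683, plus strand): accagtgcaattGCGCTCtatcgtacatcc

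DPL-1 peaks lay in the promoters of 37 of the 70 members, or 52.9% (exact 95% interval 40.6 to 64.9%), against 2852 of 19973 protein-coding genes, or 14.3%. The members were proposed with results of these data known, so this difference is a description and no test was made of it. Of the sec- genes 12 of 19 were bound (63.2%, interval 38.4 to 83.7%), of the vps- genes 15 of 31 (48.4%, 30.2 to 66.9%) and of the vha- genes 10 of 20 (50%, 27.2 to 72.8%). The intervals of the 3 groups overlap widely, and they cover the counting of genes alone. The strength of bound members was like that of bound genes at large: their median signal was 147, against 154 for the other 2815 bound genes. Within the groups the median signal was 207 for sec-, 120 for vps- and 143 for vha- genes. Among bound sec- genes 11 of 12 had a peak among the 1863 strongest of the IDR list (91.7%), as did 10 of 15 bound vps- genes (66.7%), 7 of 10 bound vha- genes (70.0%) and 65.4% of the other bound genes. With these strongest peaks alone, 28 of the 70 members would be called bound (40.0%), against 9.36% of all genes.

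**Figure D1:**
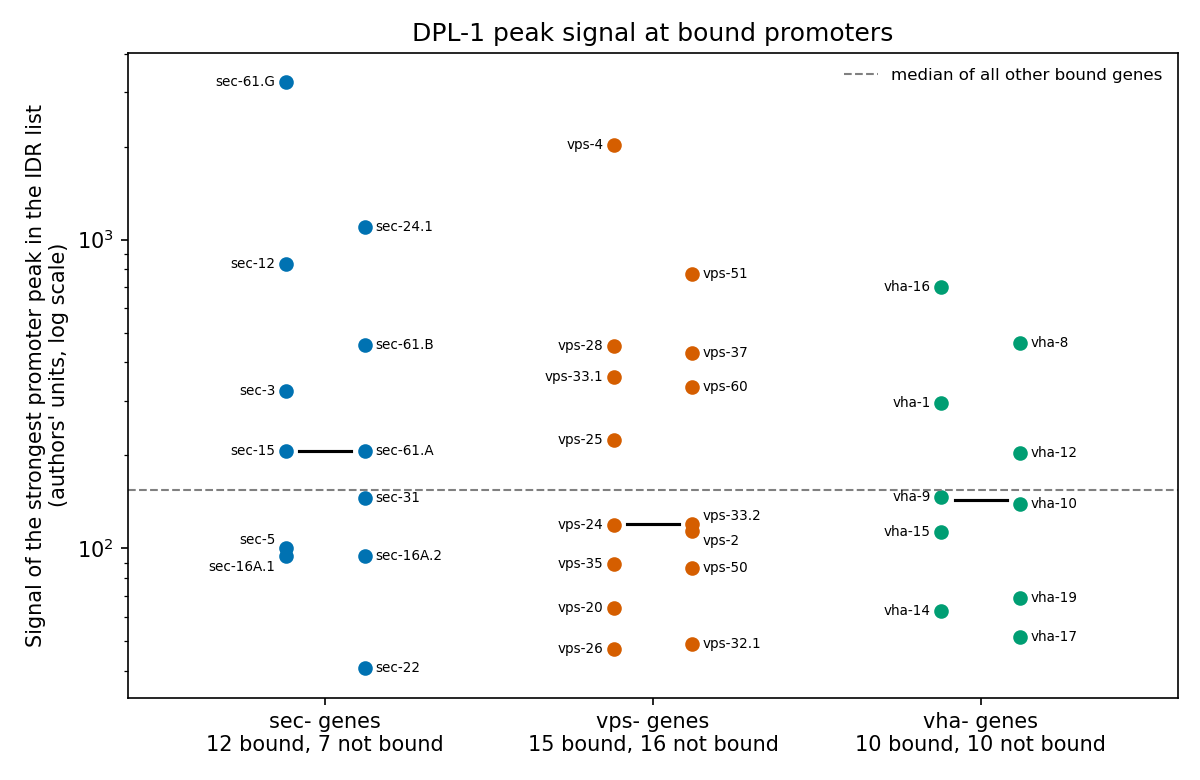
Signal of the strongest promoter peak of each bound member in the IDR list, in the authors' units on a log axis, by group. Each point is a gene, black bars are group medians (207 for sec-, 120 for vps-, 143 for vha- genes) and the dashed line is the median of the other bound genes (154). sec-61.G and vps-4 stand highest, and every group reaches down to signals under 52.

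All 3 subunits of the Sec61 translocon, the channel through which new proteins enter the ER, had bound promoters. The strongest member of all was sec-61.G (WBGene00001303), the gamma subunit, whose peak at chrV:10897217-10897571 had rank 8 in the IDR list with a signal of 3230. Its peak had a signal of 2699 and rank 8 in replicate 1, and 537 and rank 21 in replicate 2. The beta subunit gene sec-61.B had an IDR signal of 457 (rank 525), with 384 in replicate 1 and 75.2 in replicate 2. The pore subunit gene sec-61.A had an IDR signal of 207 (rank 994), with 179 in replicate 1 and 29 in replicate 2. Both replicates thus put the subunits in the order gamma, beta, alpha. The peaks at sec-61.B and sec-61.A were shared with a neighbour on the opposite strand. Positions are given from the nearest start of a gene, negative upstream. The sec-61.B summit lay at -471 bp from it and at -299 bp from trap-3, a subunit of the translocon-associated complex. The sec-61.A summit lay at 66 bp from it and at -481 bp from the ribosomal protein gene rps-18.

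COPII genes with the sec- name were bound at 5 of 7 promoters. The strongest was sec-24.1, a cargo-binding subunit of the inner coat, with an IDR signal of 1100 (rank 176), 864 in replicate 1 (rank 189) and 233 in replicate 2 (rank 140). Next was sec-12, the exchange factor that starts coat assembly by loading the GTPase Sar1, with an IDR signal of 832 (rank 275), 677 in replicate 1 and 151 in replicate 2. The outer coat gene sec-31 had an IDR signal of 146 (rank 1321), 122 in replicate 1 and 22 in replicate 2. The 3 kept this order in both replicates. The paralogs sec-16A.1 and sec-16A.2, scaffolds of ER exit sites, were nearly equal at 94.2 and 94.4 (ranks 1860 and 1858), with 81.5 and 78.2 in replicate 1 and 14.9 and 16.2 in replicate 2. The remaining 2, the inner coat genes sec-23 and sec-24.2, had no IDR summit in their windows, so the cargo-subunit paralogs sec-24.1 and sec-24.2 differed in their calls. In the pooled list, which has no threshold and is labelled as holding background too, the window of sec-24.2 held an entry of signal 14.7 (rank 12008).

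Of the exocyst genes with the sec- name 3 of 6 were bound: sec-3 with an IDR signal of 324 (rank 701), sec-15 with 206 (rank 999) and sec-5 with 100 (rank 1770). In replicate 1 these had signals of 269, 175 and 82.7, and in replicate 2 of 56.7, 32 and 16.5, the same order in both. sec-6, sec-8 and sec-10 were not bound. Of the sec- genes for SNAREs, which drive membrane fusion between ER and Golgi, sec-22 was bound with the lowest signal of any member, 40.9 (rank 3630), and sec-20 was not. The peak at sec-22 had 36.9 in replicate 1 (rank 3515) and 5.47 in replicate 2 (rank 7167), and its summit lay 3 bp from a start of stau-1 on the opposite strand. sec-11, the catalytic subunit of signal peptidase, was not bound.

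Among vps- genes the ESCRT machinery carried most of the bound promoters. Of those with the vps- name, all 6 genes of ESCRT-III and its ATPase were bound, and both of ESCRT-I, but 1 of 3 of ESCRT-II. The strongest was vps-4 (WBGene00021334), the AAA ATPase that takes ESCRT-III filaments apart, at chrI:1066998-1067324. It had an IDR signal of 2026 (rank 51), with 1614 in replicate 1 (rank 55) and 410 in replicate 2 (rank 45). The ESCRT-III genes followed well below it. vps-60 had an IDR signal of 334 (rank 684), 277 in replicate 1 and 58.4 in replicate 2. vps-24 had 119 (rank 1571), with 114 and 12.5 in replicates 1 and 2, and vps-2 had 114 (rank 1622), with 82.8 and 25.4. Ranks of vps-24 and vps-2 changed places between the replicates: vps-24 ranked 1401 in replicate 1 and 2148 in replicate 2, and vps-2 ranked 1826 and 1212. vps-20 had an IDR signal of 64.3 (rank 2515) and vps-32.1, the Snf7-type filament subunit, had 48.9 (rank 3153). The vps-32.1 peak had 46.7 in replicate 1 (rank 2901) and had no match within 100 bp in replicate 2.

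The ESCRT-I genes were close to each other, vps-28 at 451 (rank 534) and vps-37 at 428 (rank 559). In replicate 1 they had signals of 344 and 365, and in replicate 2 of 109 and 64.5, so their order differed between replicates. The ESCRT-II gene vps-25 had an IDR signal of 225 (rank 934), 192 in replicate 1 and 29.3 in replicate 2, and vps-22 and vps-36 were not bound. Among genes of the tethering complexes GARP and EARP, vps-51 and vps-50 were bound, with 772 (rank 301) and 86.1 (rank 1999), and vps-52, vps-53 and vps-54 were not. The vps-51 peak was also that of lin-35, the worm's retinoblastoma protein: its summit lay at -250 bp from vps-51 and at -168 bp from lin-35, which is read in the opposite direction. It had a signal of 684 in replicate 1 and 98.6 in replicate 2.

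Retromer genes vps-35 and vps-26 were bound and vps-29 was not. vps-35 had an IDR signal of 89.1 (rank 1940), 78.9 in replicate 1 and 9.96 in replicate 2. The vps-26 peak, with an IDR signal of 47.3 (rank 3238), had 44.4 in replicate 1 (rank 3042) and had no match in replicate 2. Of the 8 HOPS and CORVET genes only vps-33.1 (360, rank 651) and vps-33.2 (120, rank 1541) were bound, both of which encode Sec1/Munc18-type proteins that act on SNAREs. vps-33.1 had 328 in replicate 1 (rank 602) and 35.4 in replicate 2 (rank 930). vps-33.2 ranked 1562 in replicate 1 and 1274, with a signal of 23.9, in replicate 2. The core and accessory tether genes vps-8, vps-11, vps-16, vps-18, vps-39 and vps-41 were not bound. Neither were vps-34 and vps-15, the catalytic and regulatory subunits of the class III PI3-kinase, vps-13, a lipid transfer protein, or vps-45, the Sec1/Munc18 protein of endosomes. Counts per complex run from 1 to 11 genes, and no test between complexes was made.

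**Figure D2:**
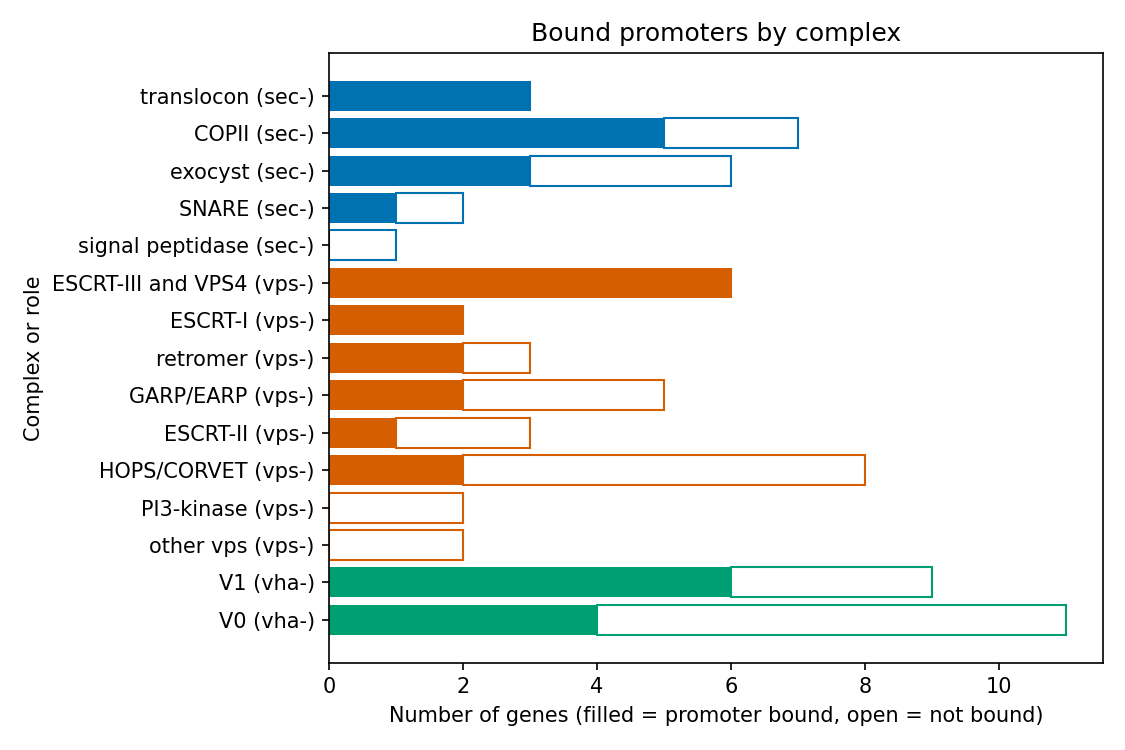
Number of members with a bound (filled) and unbound (open) promoter in each complex or role, for sec-, vps- and vha- genes from top to bottom. The translocon (3 of 3), ESCRT-I (2 of 2) and ESCRT-III with VPS4 (6 of 6) are filled throughout, whereas HOPS and CORVET have 2 of 8 and the V0 sector 4 of 11.

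In the V-ATPase, genes of the V1 sector were bound at 6 of 9 promoters and those of the V0 sector at 4 of 11. The strongest vha- gene was nevertheless of V0: vha-16, subunit d, which sits on the membrane ring, had an IDR signal of 702 (rank 342), 607 in replicate 1 and 98.1 in replicate 2. Next came vha-8, the stalk subunit E of V1, with an IDR signal of 462 (rank 519), 406 in replicate 1 and 64.2 in replicate 2. The proteolipid gene vha-1 of the V0 ring had an IDR signal of 295 (rank 749), 253 in replicate 1 and 44.2 in replicate 2. No vha- peak came near those of sec-61.G and vps-4.

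The remaining bound V1 genes were vha-12 (subunit B, 203, rank 1012), vha-9 (subunit F, 147, rank 1311), vha-10 (subunit G, 139, rank 1370), vha-15 (subunit H, 113, rank 1628) and vha-14 (subunit D, 62.5, rank 2582). In replicate 1 their signals were 181, 108, 124, 99.7 and 53.7, and in replicate 2 they were 22.6, 33.7, 14.9, 12.7 and 8.32. vha-9 was thus the highest of the 5 in replicate 2, but below vha-12 and vha-10 in replicate 1. The 3 V1 genes that were not bound were vha-13, the catalytic subunit A, vha-11, subunit C, and vha-18, a paralog of subunit H. In V0, vha-19 (68.9, rank 2383), an accessory subunit, and vha-17 (51.6, rank 3018), subunit e, were bound at low rank. They had 54.6 and 44.5 in replicate 1 and 11 and 5.68 in replicate 2. The proteolipid genes vha-2, vha-3 and vha-4, all 3 genes of subunit a that carry the vha- name (vha-5, vha-6 and vha-7) and the accessory gene vha-20 were not bound. Windows of vha-5 and vha-6 held no summit in the pooled list or in either replicate's list, as for 10 of the 33 unbound members in all. vha-6 is known as the subunit a of the intestine, and any link to the intestinal ges-1 promoter of the strain was not tested.

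In number of ranks, the replicates parted most at 2 weak members, sec-22 (3515 and 7167) and vha-17 (3039 and 6615). Not all weak members parted so far: vha-19 ranked 2549 and 2397. All 37 member peaks had a summit within 100 bp in the list of replicate 1, and 35 had one in that of replicate 2, against 99.5% and 87.1% of all IDR peaks. All IDR peaks include those outside promoters. Of the other 2815 bound genes, 2806 and 2594 had such a match in replicates 1 and 2. For sec- genes the median rank was 987.5 in replicate 1 and 1043.5 in replicate 2, with 6 of 12 peaks ranking higher in replicate 1. For vps- genes the medians were 1401 over 15 peaks and 1082 over 13, with 7 of 13 ranking higher in replicate 1, and the lower second median leaves out vps-26 and vps-32.1, the weakest of the 15. For vha- genes the medians were 1397.5 and 1582, and 8 of 10 peaks ranked higher in replicate 1. The ratio of signal in replicate 1 to that in replicate 2 had a median of 5.07 for sec-, 5.66 for vps- and 6.39 for vha- genes, and of 5.21 for the other bound genes. It was highest at vps-33.1 (9.26) and lowest at vps-28 (3.17), against the 3.30 to 10.7 given above for the middle of all IDR peaks. With each replicate alone, cut at its 3726 strongest peaks, 37 members were bound in replicate 1 (52.9%), against 14.3% of all genes, and 33 in replicate 2 (47.1%), against 12.8%. The 4 absent from replicate 2 were sec-22, vha-17, vps-26 and vps-32.1, all of low rank. The IDR list was made from these replicates, so some of this likeness is built in.

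**Figure D3:**
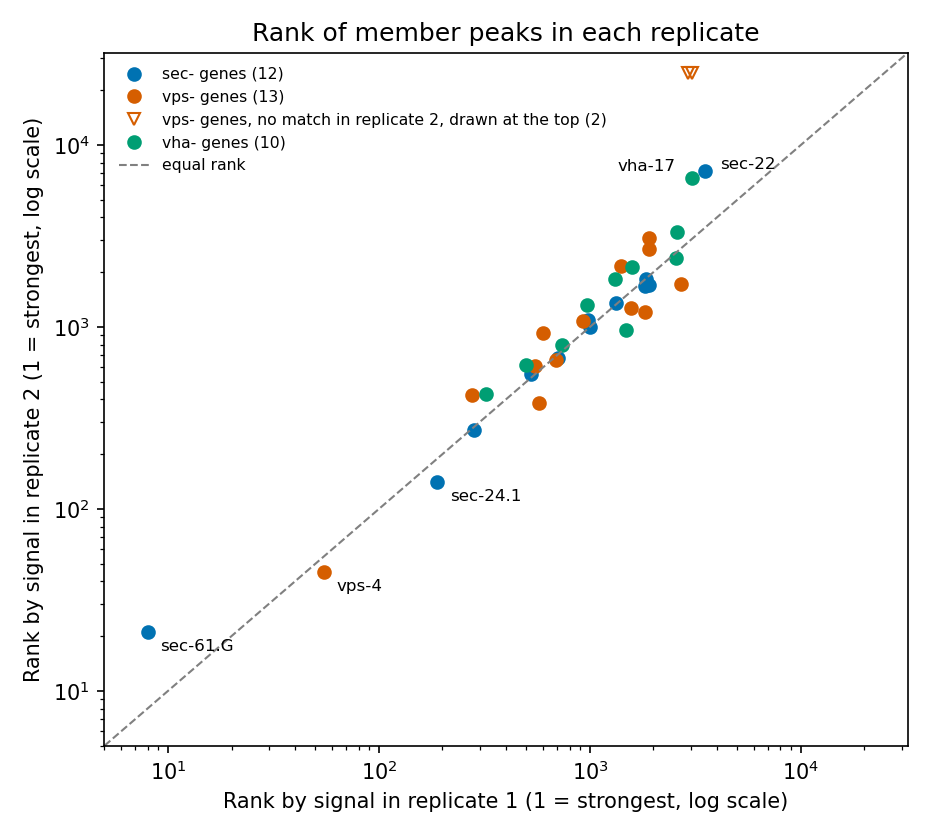
Rank of each member peak by signal in replicate 1 (x) and in replicate 2 (y), both on log axes with 1 the strongest. Points are genes by group, the dashed line marks equal rank, and open triangles at the top are vps-26 and vps-32.1, without a match in replicate 2. sec-61.G ranks 8 and 21 and vps-4 ranks 55 and 45, while vha-17 and sec-22 fall to 6615 and 7167 in replicate 2.

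Summits lay upstream of the transcript start at 34 of the 37 bound members (91.9%), against 94.6% of the other bound genes. The V-ATPase genes differed from the others in distance. The median position of their summits was -305.5 bp, against -167 bp for sec- genes, -151 bp for vps- genes and -174 bp for the other bound genes. The 10 vha- summits ranged between -469 bp (vha-10) and -120 bp (vha-14), and 7 of them lay more than 250 bp upstream. Within a narrower window of 250 bp upstream to 100 bp downstream, 3 of 20 vha- genes were bound (15%), against 9 of 19 sec- genes (47.4%), 13 of 31 vps- genes (41.9%) and 9.69% of all genes. The vha- share thus rests on summits in the outer part of the window. vps- summits reached closest to the start: those of vps-25, vps-33.2 and vps-24 lay at -16, -22 and -23 bp, and those of vps-20 and vps-26 at 6 and 22 bp.

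**Figure D4:**
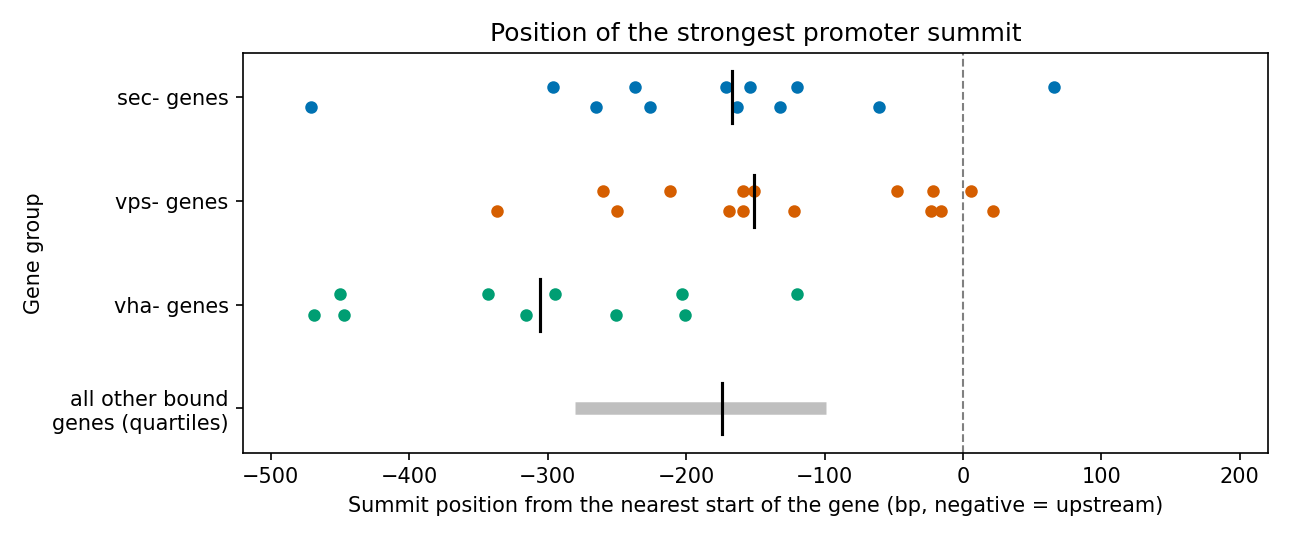
Position of the strongest promoter summit of each bound member in bp from the nearest start of its gene, negative values upstream. Points are genes, black bars are medians, and the grey bar spans the quartiles of the other bound genes (-280 to -99 bp). The vha- median lies farthest upstream, at -305.5 bp.

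Many of the member peaks fell within a second promoter. Of the 37 member peaks 15 also lay in the window of another protein-coding gene (40.5%), each of them on the opposite strand, against 44.9% for the other bound genes. Of those 15, 9 had a start of the member as the nearest one. Besides trap-3, rps-18, lin-35 and stau-1, the neighbours included eif-1 and eif-4A3, which encode translation and RNA factors and share peaks with vps-24 and vps-20, cey-4 beside vps-50, uba-2 beside vps-25, tiar-2 beside vps-2 and sqv-3 beside vha-1. At vps-20 and vps-24 the summit lay at -465 and -395 bp from the neighbour, but at 6 and -23 bp from the member. Each peak was also given to its nearest start alone, if within 1000 bp on either side and without the promoter window. By that rule 8 sec- genes (42.1%), 16 vps- genes (51.6%) and 10 vha- genes (50%) were bound, against 13% of all genes. sec-61.B, sec-15, sec-5, sec-22, vps-51 and vha-8 were lost by it. It gained vps-36, vps-39 and vha-13, whose summits lay outside the promoter window, at -905, -526 and -555 bp. Of the members bound by the main rule, it kept 8 sec-, 14 vps- and 9 vha- genes. Among genes whose windows overlap no other gene's window, 6 of 10 sec-, 8 of 20 vps- and 7 of 14 vha- genes were bound, 21 of 44 in all (47.7%), against 8.42% of all such genes. With any overlap of peak and window in place of the summit, 40 members were bound (57.1%), against 15.3% of all genes.

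Many of the 33 unbound members lay close behind another gene read in the same direction. In C. elegans such neighbours can be transcribed together as an operon from the promoter of the first gene, though operons themselves were not looked up here. A gene on the same strand ended within 500 bp upstream of, or overlapped, 16 of the 33. Over all members, bound or not, this held for 24 of 70, against 4025 of 19973 protein-coding genes. Whether it bears on the unbound calls was not tested. In 13 of the 16 unbound members (81.2%) the first gene of the run had a bound promoter, against 1139 of 3627 unbound genes of the same kind in the genome (31.4%). Examples are sec-11 behind rpb-7, an RNA polymerase subunit gene, sec-20 in a run led by ubc-20, and vps-11 in a run led by the nuclear pore gene npp-19. vha-2 lay 400 bp behind vha-1, whose own promoter was bound. Counted together, 50 of the 70 members (71.4%) were bound or lay in a run whose first gene was, against 3991 of all genes (20%). Members with such a close neighbour were themselves bound at 8 of 24 promoters (33.3%, against 9.89% of all such genes), and those without at 29 of 46 (63%, against 15.4%).

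The other 17 unbound members had no such neighbour: sec-8, sec-23, sec-24.2, vha-3, vha-4, vha-5, vha-6, vha-7, vha-11, vha-18, vps-13, vps-15, vps-18, vps-36, vps-39, vps-45 and vps-52. Entries below the threshold lay in the windows of many unbound members. The pooled list is labelled as holding background as well as peaks, so such entries need not mark binding. This list of 30000 entries had a summit in the windows of 20 of 33 (60.6%), against 27.2% of all unbound genes. In replicate 1 this was 57.6% against 27.2%, and in replicate 2 it was 30.3% against 24%, with 7 members having a summit in both. Nearest under the threshold were sec-23, with a pooled signal of 31.8 (rank 4464), and vps-45, with 31 (rank 4562), and nearest above it were sec-22 at 40.9 and vps-26 at 47.3. At the edge of the window, the summits just inside were those of sec-61.B (-471 bp), vha-10 (-469 bp) and vha-8 (-450 bp). Just outside were vps-15 at -520 bp, vps-39 at -526 bp, vha-13 at -555 bp and vps-22 at -615 bp. The summit near vps-22 belonged to the peak of rank 15 (signal 2890), which lay in the promoter of the overlapping gene C27F2.9. With promoters taken from 1000 bp upstream, 42 members were bound (60%), against 17.3% of all genes. The gained ones were vha-13, vps-15, vps-22, vps-36 and vps-39.

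**Figure D5:**
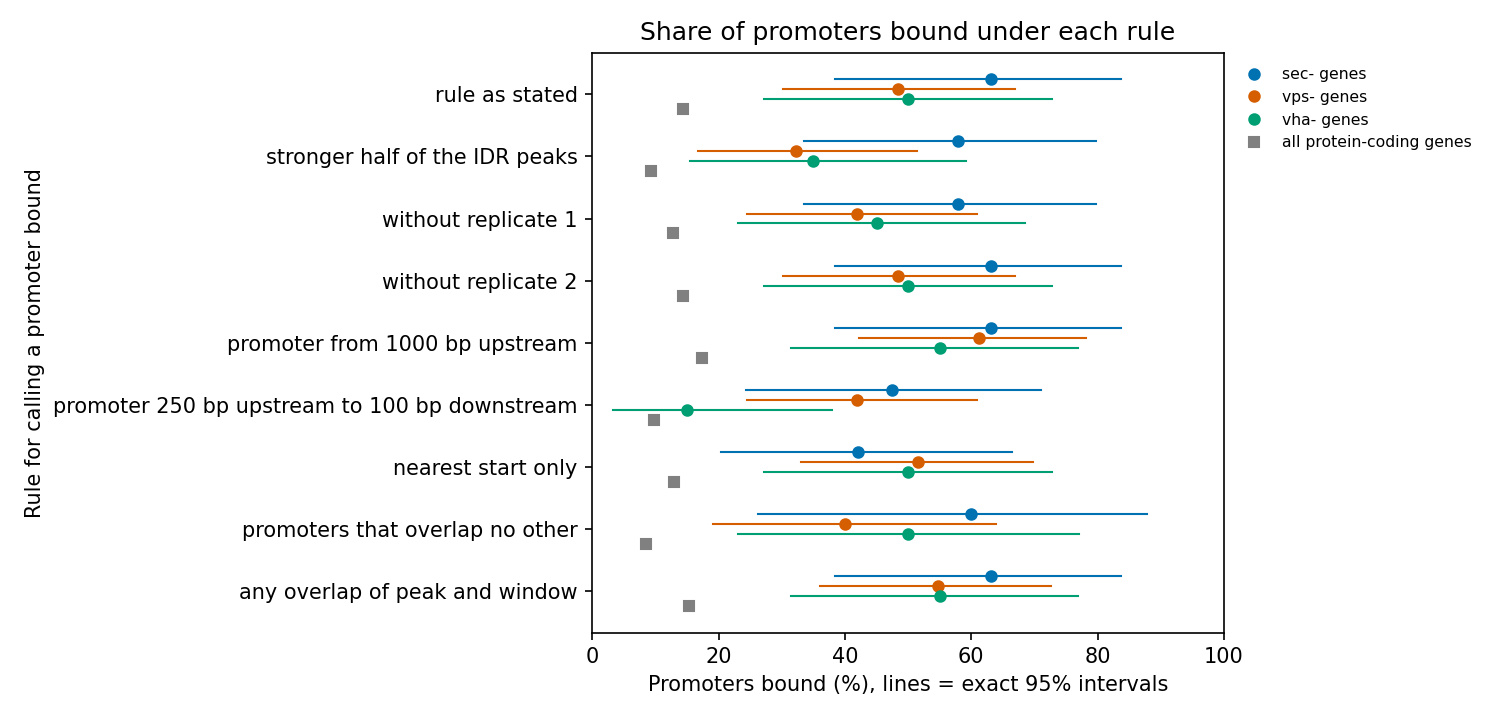
Share of promoters bound (%) under the rule as stated and under 8 other rules, with points for sec-, vps- and vha- genes, lines for exact 95% intervals, and grey squares for all protein-coding genes. Each group lies above all genes under each rule, and the vha- share is lowest, at 15%, in the window of 250 bp upstream to 100 bp downstream, where its interval reaches down to 3.21%.

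Members were spread over all 6 chromosomes and were bound on X as well. On X 6 of 10 members were bound (60%), namely sec-3, sec-15, sec-16A.2, sec-22, vha-12 and vha-15, against 8.09% of all genes there. On the autosomes 31 of 60 were bound (51.7%), against 15.3% of all genes. The members on X had signals between 40.9 and 324, under the strongest autosomal ones.

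Partner genes in the same pathways that do not carry these 3 name stems also had peaks, at 33 of 66 promoters (50%, interval 37.4 to 62.6%), against 52.9% of the members and 14.3% of all genes. Of the listed genes 8 did not match the annotation. The share was highest, at 81.8%, in the list of COPII partners and the COPI coat, which carries vesicles back to the ER, with 9 of 11 bound. They were led by sar-1, the GTPase that sec-12 activates (signal 369, rank 634), with tfg-1 (304) and copz-1 (296) next. npp-20, which encodes the Sec13 protein of the outer coat, was bound too, with 262 (rank 826). Signal recognition particle, translocon and other ER membrane partners were bound at 10 of 16, among them spcs-2 of signal peptidase (512) and trap-3 (457). The trap-3 peak is the one shared with sec-61.B, so it counts in both the member and the partner share. Exocyst and SNARE partners were bound at 5 of 9, led by syx-5 (260), a Golgi syntaxin, exoc-7 (164) and use-1, an ER SNARE (129). With exoc-7 and exoc-8 (60.3), both bound, the exocyst had 5 of 8 genes bound. Partners of ESCRT, retromer and the PI3-kinase were bound at 4 of 12, led by did-2 (231), snx-3 (85.3) and snx-1 (59.7). Of the ESCRT-I genes among them mvb-12 was bound (48.5, rank 3185) and tsg-101, a core subunit, was not. V-ATPase and lysosome partners were bound at 3 of 7, namely rbc-2 (564), cup-5 (113) and hlh-30 (53.4). Of the listed Rab GTPases, which act at membranes of the ER, Golgi and endosomes, 2 of 11 were bound, rab-18 (1422, rank 114) and rab-14 (45.3). All 20 genes with the rab- name gave 3 bound (15%), near the 14.3% of all genes.

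Other housekeeping classes give a scale for the members' share. Genes with the names of cytosolic ribosomal proteins were bound at 68 of 78 (87.2%, interval 77.7 to 93.7%) and proteasome genes at 26 of 33 (78.8%, 61.1 to 91.0%), with median signals of 340 and 191 against 147 for the members. Genes with any 3- or 4-letter name were bound at 1983 of 10896 promoters (18.2%).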

How the data were processed

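Peak lists in narrowPeak layout on build ce11 were used as deposited by the authors. Per the file names and descriptions, each replicate list was made from its own alignment with a control, a pooled list from both replicates, and the IDR list from all of these. The pooled list is named as peaks and background used as input for IDR. No caller, aligner or version is given in the sources used here. Signal per peak, as deposited, has no stated scale. The authors' -log10 q had a maximum of 3.64, shared by 2162 pooled peaks, and was not used. Not analysed here were the ce10 lists, the controls, the alignments and any signal track. The members and lists were chosen with earlier results of these data known.

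Promoters came from the Ensembl release 115 annotation of WBcel235, the assembly of ce11, with 29314 starts of protein-coding transcripts on nuclear chromosomes. A gene took its strongest IDR summit in the window, and peaks matched when summits lay within 100 bp. All results are counts, shares with exact Clopper-Pearson 95% intervals (counting error only), medians and ranges. The share that a count of 0 allows is instead that of 3 counts, an approximate limit. No test was made, since there is 1 group of 2 replicates. Bases came from the RefSeq genome of WBcel235, strings were searched on both strands, and overlaps between strings were allowed. For whole windows, each gene's start farthest upstream was used. Every member was named, with values in each replicate for up to 10 bound members per name stem with the highest IDR signal, the strongest of each role and those unmatched in a replicate. Members up to 300 bp outside the window and the 3 strongest bound genes of each partner list were named too, except 1 that is not reported here. tsg-101, mvb-12, npp-20 and exoc-8 were named after their values were seen. The symbols bet-1 and ist-1, which name other proteins in C. elegans and were not bound, were dropped from the lists afterwards. The 2 strings stated as such, the other housekeeping classes and the role of vps-13 were chosen after the data were seen. Calls were checked on simulated peaks. Python 3.11.15, numpy 2.4.6, pandas 2.3.3, scipy 1.17.1 and matplotlib 3.10.9 were used.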

Additional observations from a re-analysis of the deposited data

How the results depend on the processing

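The share of vha- genes bound, 50% as reported, was 15% with promoters of 250 bp upstream to 100 bp downstream, since 7 of the 10 summits lay farther upstream. Under the other rules it stayed between 35% and 55%. Shares of sec- genes ranged between 42.1% and 63.2% and those of vps- genes between 32.3% and 61.3%. The vha- share of 15% lay below the interval of the reported vha- share, 27.2 to 72.8%. All sec- and vps- shares lie within the intervals of their reported shares, but these intervals are wide. They cover the counting of genes alone, while the rules call the same genes again, so they do not measure robustness to the rule. Using 1 replicate alone, shares were 57.9% to 63.2% for sec-, 41.9% to 48.4% for vps- and 45% to 50% for vha- genes. Median ranks with 1 replicate were 987.5 to 1043.5 for sec-, 1082 to 1401 for vps- and 1397.5 to 1582 for vha- genes. By the mean of both ranks the vps- median was 1005 in place of 1541, over the 13 peaks matched in both replicates, which leave out 2 of the weakest. With matches within 50 or 200 bp, 34 or 36 member peaks matched in replicate 2 in place of 35, and 37 in replicate 1. No paired analysis was possible because there is only 1 group. The unknown depth limits what an unbound call means.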
